A study of Rattus norvegicus with 20 samples.

Results

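The glutathione transferases described here are 10 genes of rat liver, Gsta3, Gsta4, Gstt1, Gstt2, Gstt3, Gstm1, Gstm2, Gstp1, Gstk1 and Gsto1. They were taken by name as the probe sets annotated to these genes. All 10 were among the 14217 genes measured, and they were represented by 11 probe sets, since Gstt2 had a second one. They fall into 6 classes: alpha (Gsta3 and Gsta4), theta (Gstt1, Gstt2 and Gstt3), mu (Gstm1 and Gstm2), pi (Gstp1), kappa (Gstk1) and omega (Gsto1).

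Glutathione transferases join the tripeptide glutathione to electrophilic compounds, which makes them more soluble and easier to export. The classes differ in the compounds they handle. In the liver several alpha and mu class genes are known to be induced by foreign compounds through the factor Nrf2, which binds antioxidant response elements, and through xenobiotic receptors.

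The study measured liver RNA of 20 male Harlan Sprague-Dawley rats on 1-colour Affymetrix arrays, with 1 array per rat. Rats were given tricresyl phosphate (TCP), an organophosphate ester used as a plasticizer and flame retardant, by gavage in corn oil once a day for 4 days, and were killed on day 5. The control rats received corn oil alone (0 mg/kg, n = 5). The dosed rats received 62.3, 124.5, 248.6, 497.3 or 994.6 mg/kg body weight (n = 3 each), which is 0.169 mmol/kg at the lowest dose and 2.7 mmol/kg at the highest. All 6 groups therefore shared the vehicle, the route and the schedule, and the labels used here give no age. RNA was extracted from cubes cut from the left lobe, so the values describe whole tissue at a single time.

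Values are the deposited log2 expression values, on which a difference of 1 is a doubling. Changes are given as the log2 difference between TCP and control with limma's standard error, and a gene was called where its Benjamini-Hochberg adjusted p over all 14217 genes was under 0.05. Each dose was set against the same 5 control arrays, so the comparisons are not independent of each other. Levels of different genes come from different probes and are not compared.

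A few properties of the arrays bear on the values below. Replicate 1 of 994.6 mg/kg stood apart on the first principal component, at 37.1 against -14.2 to 9.14 for the other 19 arrays. Replicate 2 of 124.5 mg/kg had a 3' minus 5' difference of the GAPDH control probe sets, a sign of RNA integrity, of 2.58 on the log2 scale. That difference lay between 0.612 and 1.11 in the other 14 dosed rats and between 1.13 and 1.56 in the control rats, so it moved with treatment. At 994.6 mg/kg, 0 of 5 hepatocyte markers measured were called, and their mean log2 value was 14.5 to 14.6, against 14.6 to 14.7 in controls. Of 6 red blood cell markers, 4 were called lower at that dose, with a mean log2 value of 7.09 to 7.95 against 8.50 to 8.66 in controls. Of 8 periportal hepatocyte markers, 2 (Hal and Cyp2f4) were called lower, with a mean log2 value of 11.2 to 11.5 against 11.6 to 11.8. Single genes were called higher among the 6 cholangiocyte markers (Epcam), the 6 stellate markers (Rgs5) and the 7 pericentral hepatocyte markers (Slc1a2). Without replicate 1 of that dose, a count chosen after seeing the data, 3 red blood cell, 0 periportal and 0 stellate markers were called, and Epcam and Slc1a2 were still called. At 497.3 mg/kg Epcam was again called, by 0.86 (adjusted p = 0.00475), and the 6 cholangiocyte markers had a median change of 0.43 and a mean log2 value of 6.27 to 6.99, against 6.05 to 6.28 in controls. None of the 5 Kupffer cell and macrophage markers or the 4 endothelial markers was called by limma at that dose. The part of these differences in the results on the transferases was not tested, and in whole tissue a change in the number of cells of a type and a change in RNA per cell cannot be told apart.

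At the highest dose both alpha members and 2 of the 3 theta members rose. Gsta3 was 3.30-fold and Gstt3 2.21-fold higher at 994.6 mg/kg than in controls, Gsta4 was 1.44-fold and Gstt1 1.34-fold higher, and no call was made for a mu, pi, kappa or omega member. In all, 4 of 10 members were called higher and 0 lower at 994.6 mg/kg, where 2.5% of all genes were called higher and 1.96% lower (4.47% in either direction). The members were chosen with earlier results of these data known, so such counts, here and at lower doses, are a description. At an unadjusted p under 0.05, limma gave 5 members, all higher, where 18.6% of all genes had such a p. Without replicate 1 of that dose 2 members were called, Gsta3 (1.61, adjusted p = 0.000842) and Gstt3 (1.10, adjusted p = 0.00848). With the GAPDH difference as a covariate all 4 were called, with changes of 1.64 for Gsta3, 1.35 for Gstt3, 0.64 for Gsta4 and 0.49 for Gstt1. Since that difference moved with treatment, this fit cannot tell RNA integrity and dose apart. The median change of the 10 members was 0.19 on the log2 scale, and that of all genes was -0.01. By class the median was 1.12 for alpha, 0.42 for theta, 0.07 for mu and 0.02 for pi. At 62.3, 124.5, 248.6 and 497.3 mg/kg the alpha median was 0.50, 0.51, 0.83 and 0.95, and the theta median was 0.16, 0.07, 0.35 and 0.33. The mu median was 0.13, -0.06, 0.13 and 0.25 at these doses, and the pi value 0.10, 0.03, -0.06 and 0.08. Among these members the alpha pair, Gsta3 and Gsta4, had the highest value of the 4 classes at each dose. Gsta1, an alpha gene outside the members, changed by 0.11, 0.17, 0.21, 0.26 and 0.22 from the lowest to the highest dose. None of these was called, and all but that at 124.5 mg/kg lay below the theta median. No test was made between classes, and the alpha median is carried by Gsta3.

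**Figure D1:**
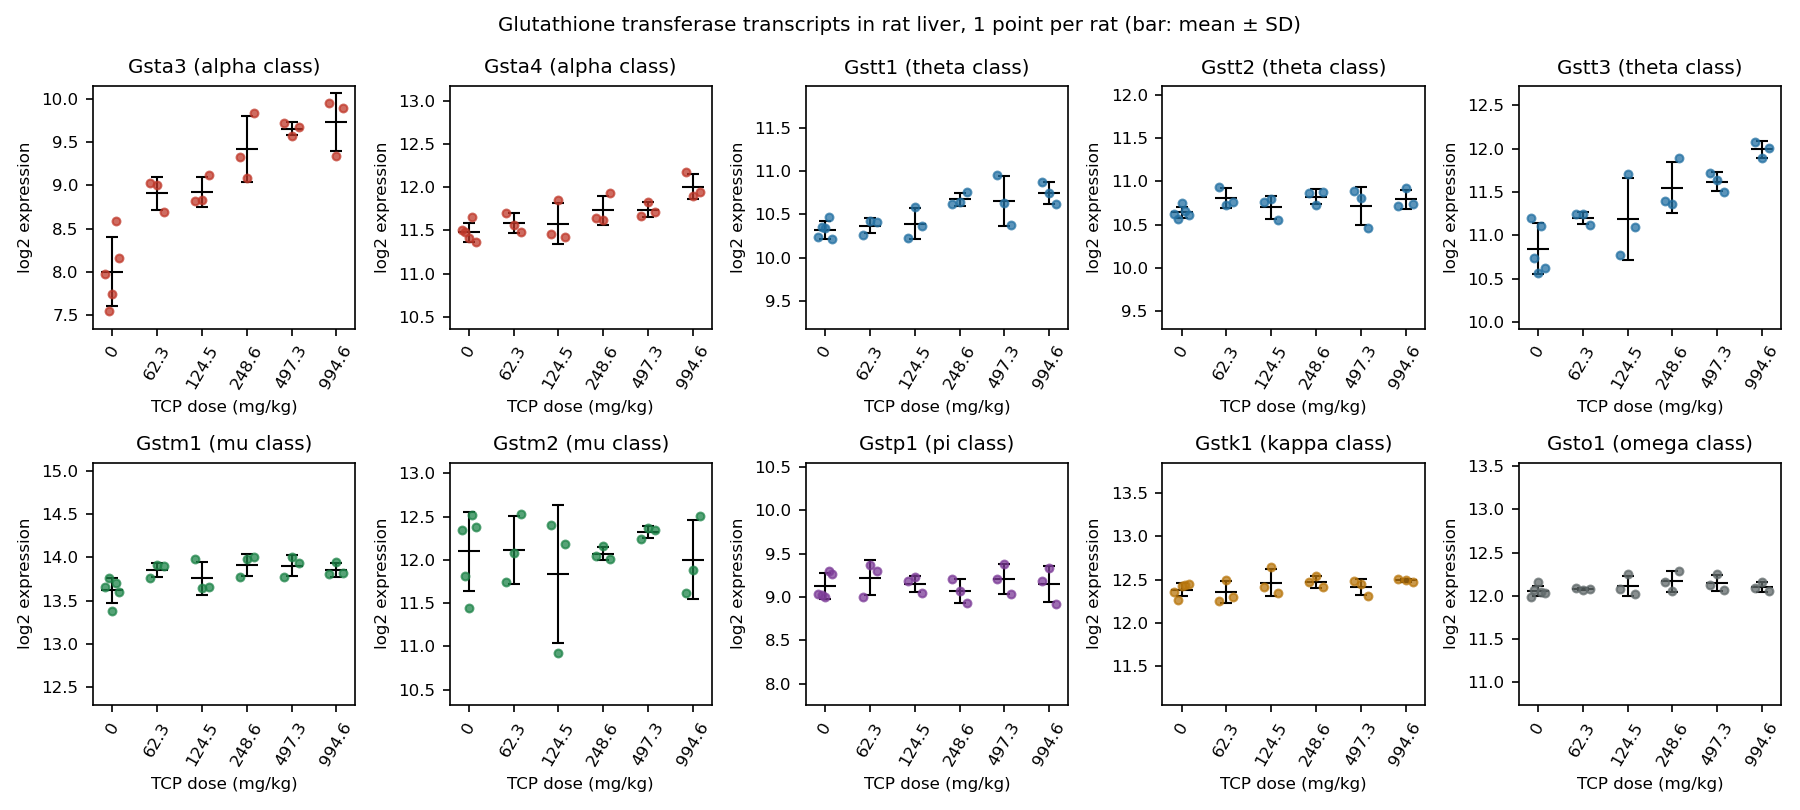
Log2 expression (y axis) of the 10 transferases in each rat against TCP dose in mg/kg (x axis), with 1 point per rat and a bar for the mean ± SD of each group (5 control rats, 3 rats at each dose). All panels span the same number of log2 units. Gsta3 is above every control in all 15 dosed rats, while the Gstp1 groups overlap at each dose.

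Gsta3 encodes the Yc2 subunit, which in rats is known for conjugating the epoxide of aflatoxin B1. Its log2 value was 7.97, 7.75, 8.16, 7.55 and 8.59 in the control rats. At 62.3 mg/kg it was 9.03, 9.0 and 8.69, and at 124.5 mg/kg it was 8.82, 8.83 and 9.12. At 248.6 mg/kg it was 9.33, 9.09 and 9.84, at 497.3 mg/kg it was 9.72, 9.57 and 9.68, and at 994.6 mg/kg it was 9.95, 9.34 and 9.90. No dosed rat overlapped with the controls, since the lowest of 15 dosed rats read 8.69 and the highest control 8.59. Such a separation over all 15 dosed rats was seen in 10 of 14217 genes (0.0703%).

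The change of Gsta3 on the log2 scale was 1.72 ± 0.20 at 994.6 mg/kg (adjusted p = 8.28e-05), 1.65 ± 0.20 at 497.3 mg/kg (adjusted p = 0.000323) and 1.41 ± 0.20 at 248.6 mg/kg (adjusted p = 0.00375). It was 0.92 ± 0.20 at 124.5 mg/kg (adjusted p = 0.615) and 0.90 ± 0.20 at 62.3 mg/kg (adjusted p = 0.9996), neither of which passed the threshold over all genes. Without replicate 3 of 248.6 mg/kg the change at that dose was 1.20 (adjusted p = 0.0821). At these lower doses the unadjusted p-values of Gsta3 were 0.000201 and 0.000238, and the 95% interval of the change at 62.3 mg/kg ran from 0.49 to 1.32. The change at 62.3 mg/kg was 52.4% of that at 994.6 mg/kg, and the changes at 124.5, 248.6 and 497.3 mg/kg were 53.3%, 82.0% and 95.7% of it. Most of the difference was thus present by 248.6 mg/kg, and the last doubling of dose added 0.07 ± 0.22 (adjusted p = 0.964).

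Gsta4 encodes the alpha class enzyme with high activity toward 4-hydroxynonenal, a product of lipid peroxidation. It read 11.50, 11.41, 11.36, 11.48 and 11.65 in the control rats, and 11.71, 11.56 and 11.48 at 62.3 mg/kg. It read 11.45, 11.85 and 11.43 at 124.5 mg/kg, 11.64, 11.62 and 11.93 at 248.6 mg/kg, 11.66, 11.83 and 11.71 at 497.3 mg/kg, and 12.17, 11.90 and 11.95 at 994.6 mg/kg. The 2 highest dose groups did not overlap with the controls, while each lower dose group did. At 994.6 mg/kg 6.91% of all genes lay above all controls in this way, and at 497.3 mg/kg this share was not counted. Gsta4 rose by 0.53 ± 0.11 at 994.6 mg/kg (adjusted p = 0.00786), and its change was 0.26 ± 0.11 at 497.3 mg/kg (adjusted p = 0.327) and 0.25 ± 0.11 at 248.6 mg/kg (adjusted p = 0.731). The step between the 2 highest doses was 0.27 ± 0.12 (adjusted p = 0.626). Without replicate 1 of 994.6 mg/kg the change of Gsta4 at that dose was 0.44 (adjusted p = 0.0795), and no longer passed the threshold.

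The promoters of both alpha members are shown because these members rose to different extents. They come from RefSeq (build GRCr8), run from 250 bases before the annotated start to 50 bases after it, and are read 5′ to 3′ on the gene's strand. RefSeq lists 2 start sites for Gsta3, at chr9:31154739-31155038 and chr9:31166793-31167092, and 1 for Gsta4, at chr8:87947015-87947314, all on the plus strand. Capitals mark matches on either strand to the core of the antioxidant response element (TGACNNNGC), the core of the xenobiotic response element of the aryl hydrocarbon receptor (GCGTG) or a nuclear receptor half-site (AGGTCA).
Gsta3 start site 1: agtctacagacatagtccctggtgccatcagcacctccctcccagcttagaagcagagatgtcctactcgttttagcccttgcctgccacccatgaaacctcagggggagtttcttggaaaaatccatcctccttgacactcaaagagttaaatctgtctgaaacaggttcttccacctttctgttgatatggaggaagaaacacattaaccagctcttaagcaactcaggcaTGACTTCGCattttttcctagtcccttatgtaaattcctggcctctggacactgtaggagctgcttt
Gsta3 start site 2: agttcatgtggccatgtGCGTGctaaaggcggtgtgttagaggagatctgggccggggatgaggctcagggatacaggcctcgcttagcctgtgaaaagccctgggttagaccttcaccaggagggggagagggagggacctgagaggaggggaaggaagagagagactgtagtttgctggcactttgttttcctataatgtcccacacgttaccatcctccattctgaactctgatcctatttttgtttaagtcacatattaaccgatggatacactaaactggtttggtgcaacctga
Gsta4: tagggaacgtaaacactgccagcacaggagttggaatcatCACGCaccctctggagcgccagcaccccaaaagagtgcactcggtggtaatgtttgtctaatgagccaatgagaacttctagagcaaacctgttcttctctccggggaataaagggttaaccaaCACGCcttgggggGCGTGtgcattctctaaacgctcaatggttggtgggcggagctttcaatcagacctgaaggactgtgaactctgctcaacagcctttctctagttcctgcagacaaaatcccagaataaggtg
The first Gsta3 start holds 1 match to the antioxidant response element core, TGACTTCGC at position -17 from the start. The second holds GCGTG at position -233. Gsta4 holds 3 matches to GCGTG or its reverse complement, at positions -210, -86 and -73. Of 33469 RefSeq promoters of the same length, 12.1% hold the antioxidant response element core, 29.7% hold GCGTG and 16.2% hold AGGTCA, so each match is common. A match in these letters is a description and does not show binding.

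Of the theta class, Gstt3 had the largest change. Its log2 value was 11.20, 10.57, 10.62, 10.74 and 11.11 in the control rats and 11.24, 11.24 and 11.12 at 62.3 mg/kg. At 124.5 mg/kg it was 10.77, 11.70 and 11.10, and at 248.6 mg/kg it was 11.40, 11.37 and 11.89. At 497.3 mg/kg it was 11.72, 11.65 and 11.50, and at 994.6 mg/kg it was 12.08, 11.89 and 12.01. The 3 highest dose groups lay above all controls. So did 6.91% of all genes at 994.6 mg/kg, and their share at 497.3 and 248.6 mg/kg was not counted. Gstt3 rose by 1.14 ± 0.18 at 994.6 mg/kg (adjusted p = 0.000918) and by 0.77 ± 0.18 at 497.3 mg/kg (adjusted p = 0.0488), and its change was 0.70 ± 0.18 at 248.6 mg/kg (adjusted p = 0.392). The call of Gstt3 at 497.3 mg/kg lay close to the threshold and was lost in 7 of 8 fits that left out 1 array, all but that without control replicate 1, with changes of 0.70 to 0.84. At 62.3, 124.5, 248.6 and 497.3 mg/kg the change of Gstt3 was 30.7%, 30.0%, 61.6% and 67.5% of that at 994.6 mg/kg. Replicate 2 of 124.5 mg/kg, the array with the large GAPDH difference, held the 11.70, and without it the change at 124.5 mg/kg was 0.09 in place of 0.34 ± 0.18.

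The promoter of Gstt3, at chr20:12874368-12874667 on the plus strand, is shown because this gene had the largest change of its class. It holds none of these motifs.
Gstt3: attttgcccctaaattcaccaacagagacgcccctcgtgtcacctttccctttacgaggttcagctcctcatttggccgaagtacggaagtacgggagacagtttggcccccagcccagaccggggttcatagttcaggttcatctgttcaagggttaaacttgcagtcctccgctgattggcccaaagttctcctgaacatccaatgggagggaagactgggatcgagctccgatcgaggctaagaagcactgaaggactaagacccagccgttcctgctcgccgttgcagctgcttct
That no motif was found says only that these letters are not in this window.

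Gstt1, which conjugates small halogenated compounds such as dichloromethane, read 10.24, 10.34, 10.21, 10.35 and 10.47 in the control rats. It read 10.26, 10.42 and 10.41 at 62.3 mg/kg, 10.23, 10.59 and 10.37 at 124.5 mg/kg and 10.62, 10.64 and 10.75 at 248.6 mg/kg. It read 10.95, 10.63 and 10.38 at 497.3 mg/kg and 10.88, 10.74 and 10.62 at 994.6 mg/kg. The 248.6 and 994.6 mg/kg groups lay above all controls, and the 497.3 mg/kg group overlapped with them. Such a separation was seen in 6.91% of all genes at 994.6 mg/kg and was not counted over all genes at 248.6 mg/kg. Gstt1 rose by 0.42 ± 0.11 at 994.6 mg/kg (adjusted p = 0.0365), and its change was 0.33 ± 0.11 at 497.3 mg/kg (adjusted p = 0.205) and 0.35 ± 0.11 at 248.6 mg/kg (adjusted p = 0.584). Without replicate 1 of 994.6 mg/kg its change at that dose was 0.35 (adjusted p = 0.219), and the call was also lost without replicate 2 of that dose or without control replicate 1, 2, 3 or 4 (adjusted p between 0.0566 and 0.0804).

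Gstt2, a theta class enzyme that acts on aryl sulfate esters, read 10.47 to 10.94 in the dosed rats and 10.56 to 10.75 in the control rats. Of the 15 dosed rats, 9 lay above all controls and 2 below them, a count not made over all genes. The change of Gstt2 was above 0 at all 5 doses and was called at none. Its change at 994.6 mg/kg was 0.15 ± 0.09 (adjusted p = 0.428), with a 95% interval of -0.05 to 0.35. The second Gstt2 probe set changed by -0.10 ± 0.20 at that dose (adjusted p = 0.876 over 31042 probe sets). In the RefSeq annotation Gstt1 and Gstt3 are neighbouring genes.

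**Figure D2:**
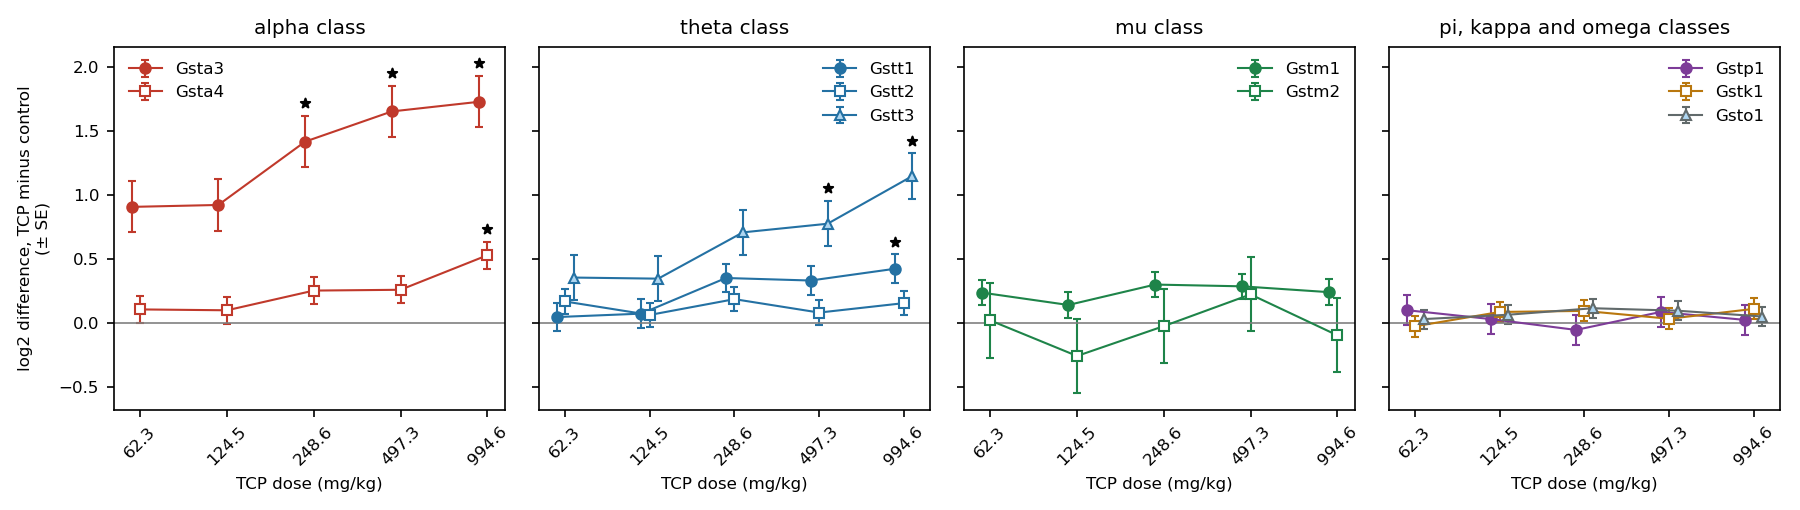
Log2 difference of TCP from control (y axis, ± limma's SE) against dose in mg/kg (x axis) for the members of each class, from 3 dosed and 5 control rats per comparison. Stars mark an adjusted p under 0.05 over all genes. Gsta3 is starred at 3 doses, Gstt3 at 2, Gsta4 and Gstt1 at 1, and the mu, pi, kappa and omega members at none.

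The mu class enzymes, abundant in rat liver, conjugate aromatic halides and epoxides. Gstm1 read 13.66, 13.38, 13.60, 13.76 and 13.70 in the control rats, and 12 of 15 dosed rats lay above all controls. It read 13.75, 13.91 and 13.89 at 62.3 mg/kg, 13.97, 13.64 and 13.65 at 124.5 mg/kg, 13.77, 13.97 and 14.002 at 248.6 mg/kg, and 13.77, 14.004 and 13.93 at 497.3 mg/kg. The 994.6, 497.3 and 248.6 mg/kg groups lay above all controls. The 124.5 mg/kg group overlapped with them, and the lowest rat at 62.3 mg/kg was level with the highest control. Such a separation was seen in 6.91% of all genes at 994.6 mg/kg. The share of all genes separated at 497.3 or 248.6 mg/kg, or with 12 of 15 dosed rats above all controls, was not counted. At 994.6 mg/kg Gstm1 read 13.80, 13.95 and 13.82, a change of 0.24 ± 0.10 (adjusted p = 0.190, 95% interval 0.03 to 0.44). Its changes at 62.3, 124.5, 248.6 and 497.3 mg/kg were 0.23 ± 0.10, 0.14 ± 0.10, 0.30 ± 0.10 and 0.28 ± 0.10, none of them called. Its change at 62.3 mg/kg was thus close in size to that at 994.6 mg/kg.

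Gstm2 had the largest standard error of the 10 members at 994.6 mg/kg, although its SD was 0.08 at 248.6 mg/kg and 0.07 at 497.3 mg/kg, against 0.46 in controls. It read 12.34, 11.44, 12.38, 11.81 and 12.52 in the control rats, and 11.74, 12.08 and 12.52 at 62.3 mg/kg. It read 12.40, 10.92 and 12.19 at 124.5 mg/kg, 12.05, 12.16 and 12.01 at 248.6 mg/kg, 12.24, 12.37 and 12.35 at 497.3 mg/kg, and 11.62, 11.88 and 12.50 at 994.6 mg/kg. Of the 15 dosed rats, 1 lay above all controls and 1 below them. Its lowest value, 10.92, came from replicate 2 of 124.5 mg/kg. The change at 994.6 mg/kg was -0.10 ± 0.29 (adjusted p = 0.904), with a 95% interval of -0.71 to 0.51, so a rise of the size of Gstt1's could not be told from none. With the GAPDH difference, which moved with treatment, as a covariate it was -0.59 (adjusted p = 0.194).

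Gstp1, the pi class member, is low in adult rat hepatocytes and is used as a marker of preneoplastic foci. It read 9.19, 9.33 and 8.92 at 994.6 mg/kg, and 9.04, 9.0, 9.27, 9.03 and 9.31 in the control rats. The groups overlapped, with 3 of 15 dosed rats above all controls and 3 below them. Its change at 994.6 mg/kg was 0.02 ± 0.12 (adjusted p = 0.953), with a 95% interval of -0.22 to 0.26. At the other doses it lay between -0.06 (248.6 mg/kg) and 0.10 (62.3 mg/kg), with no order by dose.

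The Gstp1 promoter, at chr1:210769656-210769955 on the minus strand, is shown beside that of Gsta3 because both hold a match to the antioxidant response element core.
Gstp1: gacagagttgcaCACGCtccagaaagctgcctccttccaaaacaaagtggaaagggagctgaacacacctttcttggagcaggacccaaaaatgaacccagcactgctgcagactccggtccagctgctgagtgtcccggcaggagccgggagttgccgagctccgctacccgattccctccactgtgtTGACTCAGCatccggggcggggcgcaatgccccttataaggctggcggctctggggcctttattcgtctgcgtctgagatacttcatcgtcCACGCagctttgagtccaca
The match in Gstp1 is TGACTCAGC at position -61, and the reverse complement of GCGTG occurs at positions -238 and 30. Of the remaining members with a promoter in RefSeq's table, Gstm1 holds AGGTCA at position -11, and Gstm2, Gstk1 and Gsto1 hold none of these motifs. The members thus held different sets of matches, and the antioxidant response element core was found in both Gsta3 and Gstp1. Whether a match bears on the change of a gene was not tested.

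Gstk1, the kappa class enzyme of mitochondria and peroxisomes, read 12.26 to 12.65 in the dosed rats and 12.26 to 12.44 in the control rats. At 994.6 mg/kg it read 12.51, 12.49 and 12.47, above all controls, with a change of 0.11 ± 0.08 (adjusted p = 0.536). Across all genes, 6.91% had all 3 arrays of 994.6 mg/kg above all controls. Gsto1, the omega class enzyme that reduces dehydroascorbate, read 12.09, 12.16 and 12.06 at 994.6 mg/kg and 11.99 to 12.16 in the control rats, with a change of 0.05 ± 0.07 (adjusted p = 0.806). The 95% intervals of both reached no higher than 0.28 on the log2 scale.

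At lower doses fewer members passed the adjusted threshold. At 497.3 mg/kg 2 of 10 members, Gsta3 and Gstt3, were called higher, where 0.513% of all genes were called higher. There 5 members had an unadjusted p under 0.05, all higher, where 12.2% of all genes did. At 248.6 mg/kg 1 of 10, Gsta3, was called higher, where 0.0492% of all genes were (0.0563% in either direction), and again 5 members had an unadjusted p under 0.05, all higher, where 6.65% of all genes did. At 124.5 mg/kg limma called 0 members, where 0.00703% of all genes were called in either direction, and 1 member had an unadjusted p under 0.05, where 5.04% of all genes did. At 62.3 mg/kg it called 0 members, where 0% of all genes were called, and 2 members had an unadjusted p under 0.05, where 2.45% of all genes did. Between 994.6 and 497.3 mg/kg, a comparison without the control arrays, limma called 0 members, where 0.0141% of all genes were called higher and 0.0211% in either direction, and 1 member (Gsta4) had an unadjusted p under 0.05, where 7.61% of all genes did, a share near the background.

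The dose trend, a slope per dose step with 0 for control and 5 for 994.6 mg/kg, was called for the same 4 members as at 994.6 mg/kg. The slope was 0.34 ± 0.04 per step for Gsta3 (adjusted p = 1.31e-05), 0.21 ± 0.03 for Gstt3 (adjusted p = 0.00016), 0.09 ± 0.02 for Gsta4 (adjusted p = 0.00366) and 0.09 ± 0.02 for Gstt1 (adjusted p = 0.00446). The other 6 members were not called, with Gstm1 nearest at 0.05 ± 0.02 (adjusted p = 0.0962). With array weights, an alternative limma fit, the slope of Gstm1 was called (0.06 ± 0.02, adjusted p = 0.0308). Across all genes 3.9% had a called rising slope and 2.57% a falling one, 6.47% in all. Over the 15 dosed rats alone, which leaves out the step from control, the slope of Gsta3 was 0.24 ± 0.04 (adjusted p = 0.0218), while those of Gstt3 (0.20 ± 0.04, adjusted p = 0.0516), Gsta4 (0.10 ± 0.03, adjusted p = 0.139) and Gstt1 (0.10 ± 0.03, adjusted p = 0.152) were not called.

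Gsta3 and Gsta4 of the alpha class, and Gstt3 and Gstt2 of the theta class, changed by unequal amounts. The members were chosen with earlier results of these data known, so these tests are a description. The log2 difference between both genes of a pair was taken within each rat. Its mean at 994.6 mg/kg was set against that in controls with an exact two-sided permutation test over 3 dosed and 5 control rats. With 56 splits this test cannot give a p under 0.0179, and p-values were adjusted over the 5 pairs. Gsta3 changed by 1.20 more than Gsta4 (exact p = 0.0179, adjusted p = 0.0446). Gstt3 changed by 0.99 more than Gstt2 (exact p = 0.0179, adjusted p = 0.0446), and the groups did not overlap in either pair. Both calls were lost in 7 of 8 tests that left out 1 rat, all but that without control replicate 1 (exact test, adjusted p between 0.0595 and 0.0794). With 4 controls the test cannot give a p under 0.0286, and with 2 dosed rats none under 0.0476. After adjustment over the 5 pairs, a pair at this limit passes only where other pairs also reach it. These losses therefore do not show that a difference rests on 1 rat. Gstt3 changed by 0.72 more than Gstt1 (exact p = 0.0357, adjusted p = 0.0595) and Gstt1 by 0.27 more than Gstt2 (exact p = 0.0536, adjusted p = 0.067), which did not pass the threshold. The groups were also apart for Gstt3 minus Gstt1, and overlapped for Gstt1 minus Gstt2. In the mu class, Gstm1 changed by 0.34 more than Gstm2 (exact p = 0.161, adjusted p = 0.161).

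**Figure D3:**
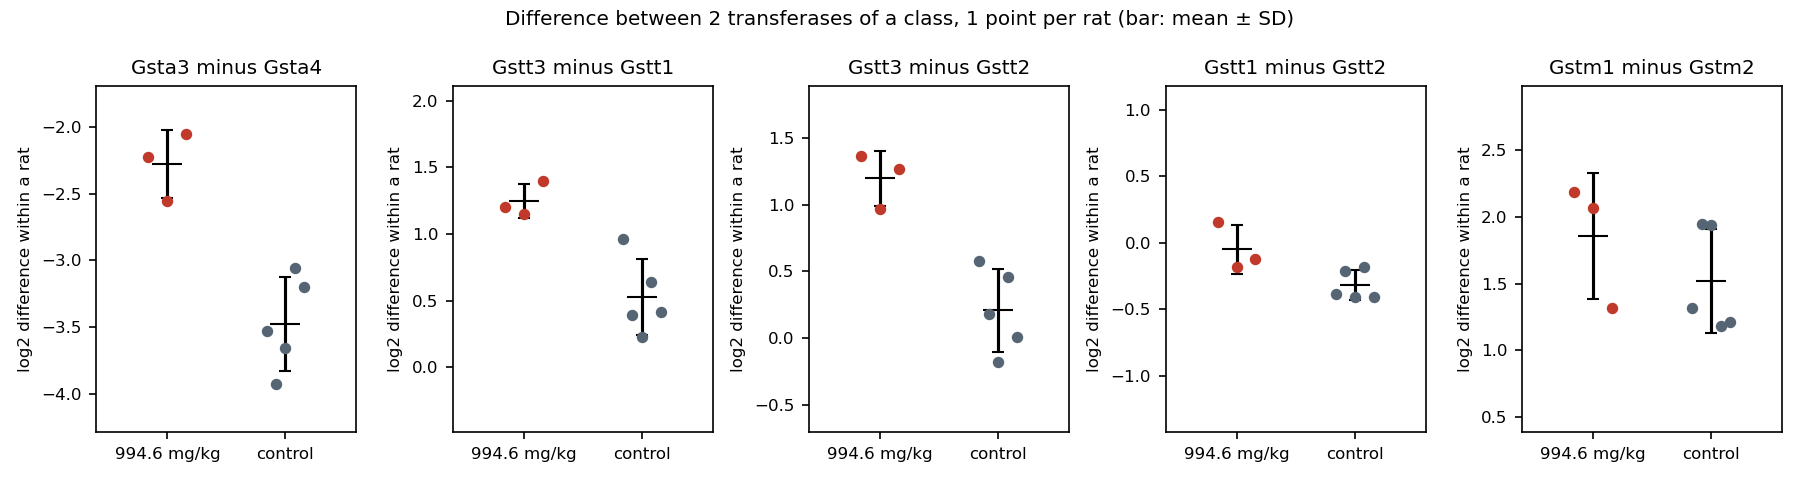
Log2 difference between 2 transferases of a class within each rat (y axis) at 994.6 mg/kg (3 rats, left) and in controls (5 rats, right), with 1 point per rat and a bar for the mean ± SD. The level of each difference depends on the probes, and the shift between the groups is what was tested. The groups are apart for Gsta3 minus Gsta4, Gstt3 minus Gstt2 and Gstt3 minus Gstt1. They overlap for Gstt1 minus Gstt2 and Gstm1 minus Gstm2.

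Across the 20 rats Gsta4 and Gstt3 followed each other closely, although they belong to different classes and, in the RefSeq annotation, lie on chromosomes 8 and 20. Their Pearson correlation was 0.92 over all 20 arrays and 0.80 after each group's mean was taken out. The rats share a platform and a joint dose effect, so this is a description. Replicate 2 of 124.5 mg/kg was the highest of its group for both genes. The correlation of Gsta3 with Gstt3 was 0.85 over all arrays and 0.44 within groups.

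**Figure D4:**
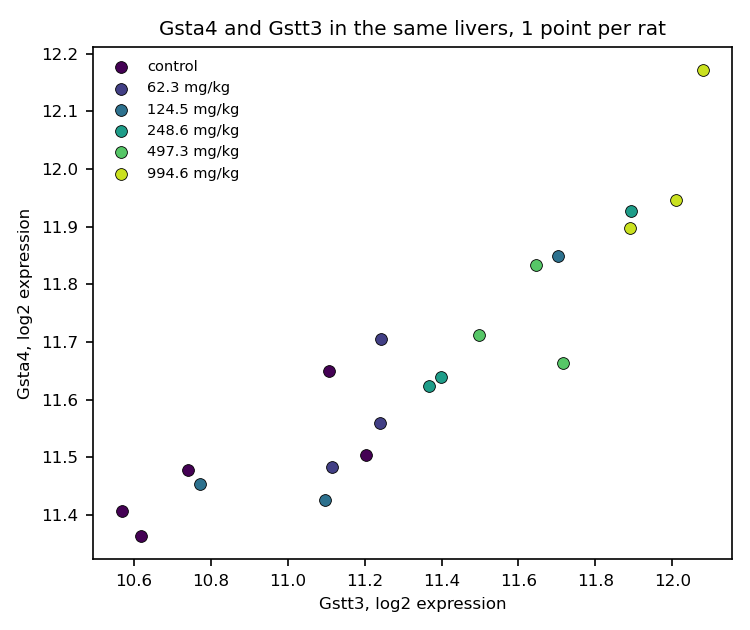
Log2 expression of Gsta4 (y axis) against that of Gstt3 (x axis) in the same livers, with 1 point per rat (20 rats) coloured by dose group. Rats of 994.6 mg/kg lie at the upper right and controls at the lower left, and the 124.5 mg/kg rat with a Gstt3 value of 11.70 lies among the higher doses.

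The genes whose log2 values followed each called member most closely over the 20 arrays were named by Pearson's r. For Gsta3 they were App (r = 0.905), Ephx1 (r = 0.899), the microsomal epoxide hydrolase, and Aldh1a1 (r = 0.898), a retinaldehyde dehydrogenase. For Gsta4 they were Gstt3 (r = 0.921), Serpina10 (r = 0.876) and Mitf (r = 0.865). For Gstt1 they were Dennd2a (r = 0.826), Gstt3 (r = 0.815) and Acad9 (r = 0.804), and for Gstt3 they were Gsta4 (r = 0.921), Sgpl1 (r = 0.875) and Aox1 (r = 0.860), aldehyde oxidase.

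Other transferases were examined as a list. Of 24 such genes and relatives in a list, 18 were measured, and limma called 0 of them at 994.6 mg/kg, with and without replicate 1 of that dose, where 4.47% of all genes were called (1.22% without that array). So few genes leave this count near the background. Their median change was 0.04, against -0.01 for all genes. Gsta1, an alpha class gene next to Gsta3 in the annotation, had a called slope of 0.05 ± 0.01 per dose step (adjusted p = 0.0197), the single call of the list on the trend, where 6.47% of all genes were called. Its change at 994.6 mg/kg was 0.22 ± 0.08 (adjusted p = 0.108). Gsta5 and Gsta2 of the list were not among the 18 measured, and Gsta5 is also listed as a synonym of Gsta3. A further probe set is annotated to Gsta5 and Gsta2 together and so was assigned to neither. It rose by 0.87 ± 0.13 at 994.6 mg/kg (adjusted p = 0.00083 over 31042 probe sets), and it was singled out after its value was seen. Alpha class genes of the rat are close copies, and whether probes of Gsta3 also measured relatives was not tested.

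Genes that make, use and break down glutathione were changed in both directions. Of 34 measured genes of 35 listed, 1 was called higher and 6 lower at 994.6 mg/kg, where 2.5% of all genes were called higher and 1.96% lower. Their median change was -0.02, against -0.01 for all genes. Nat8, which acetylates cysteine conjugates in the last step of mercapturate formation, fell by 1.46 on the log2 scale (SE 0.16, adjusted p = 4.53e-05). Gclc, the catalytic subunit of the enzyme that limits glutathione synthesis, fell by 0.73 (SE 0.16, adjusted p = 0.0142), and Cbs, the first enzyme of transsulfuration, fell by 0.65 (SE 0.12, adjusted p = 0.00347). Ggct, Anpep and Ahcy fell by 0.52, 0.30 and 0.27. Slc3a2, the heavy chain of the cystine transporter, rose by 0.81 ± 0.23 (adjusted p = 0.048). Gsr, which reduces glutathione disulfide, had a change of 0.60 ± 0.20 (adjusted p = 0.0962) and a called slope of 0.12 ± 0.03 per step. On the trend 3 genes of the list rose and 4 fell, where 3.9% of all genes rose and 2.57% fell. In a count without replicate 1 of 994.6 mg/kg, chosen after seeing the data, 0 genes of the list were called higher and 2 lower, where 1.22% of all genes were called in either direction. These were Nat8 (-1.17, adjusted p = 6.14e-05) and Cbs (-0.51, adjusted p = 0.0381). The changes of those no longer called were of similar or smaller size, -0.52 for Ggct, -0.24 for Ahcy, -0.58 for Gclc, -0.23 for Anpep and 0.55 for Slc3a2. At 497.3 mg/kg the same 2 genes were called lower, Nat8 by -0.71 (adjusted p = 0.0449) and Cbs by -0.58 (adjusted p = 0.0232).

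**Figure D5:**
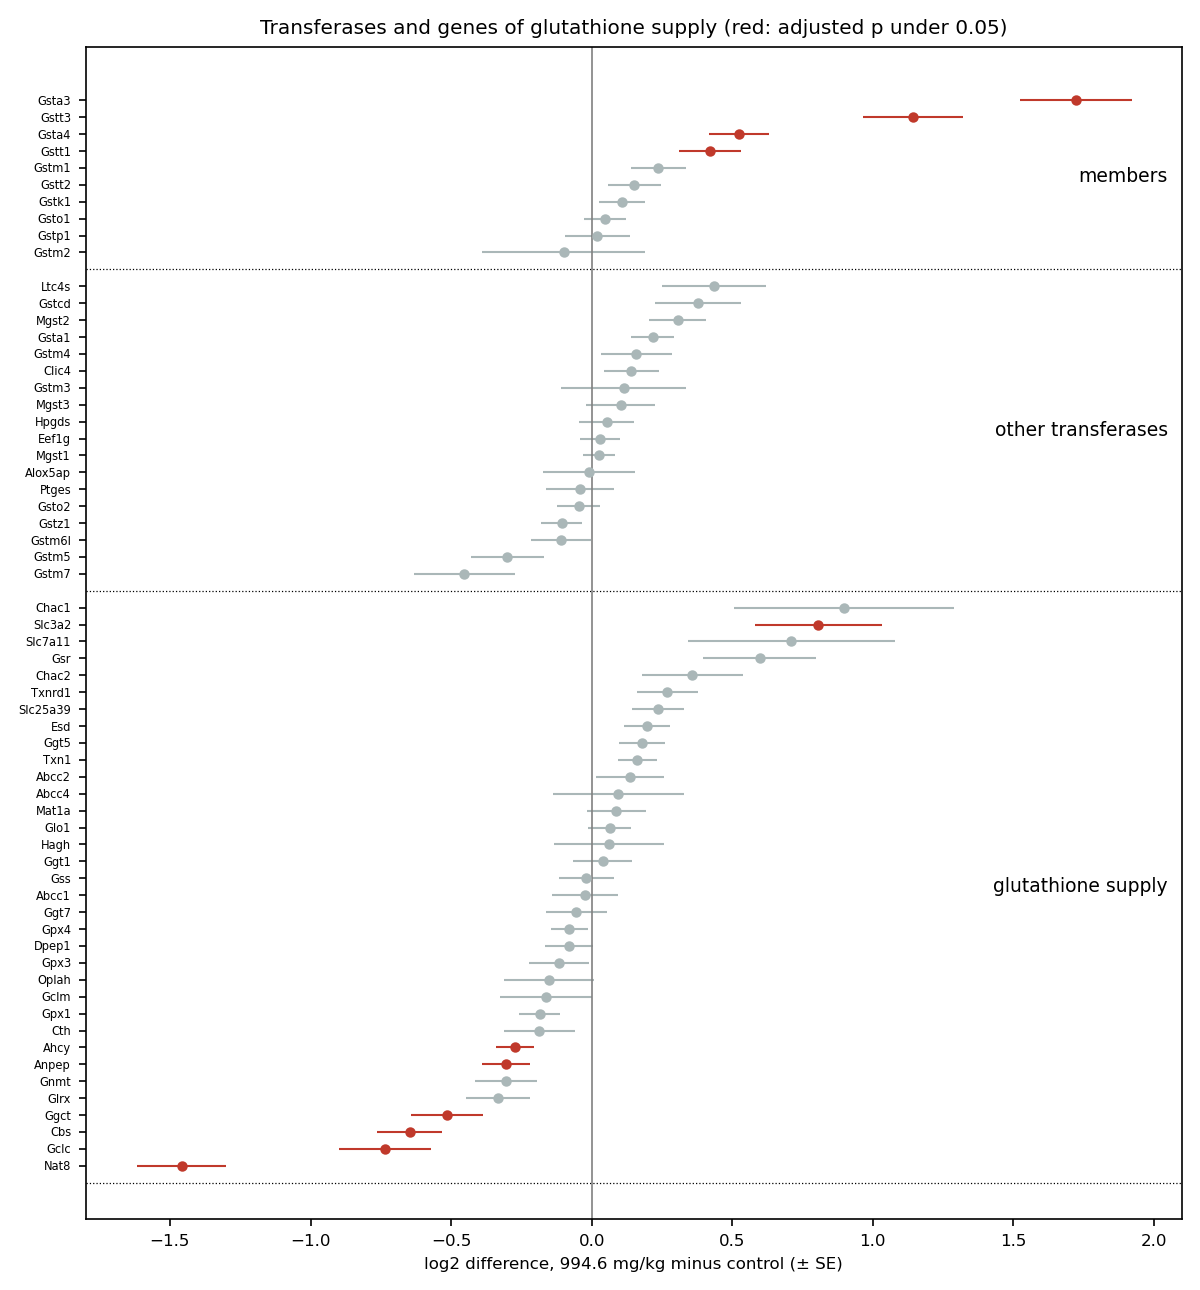
Log2 difference of 994.6 mg/kg from control (x axis, ± limma's SE, 3 and 5 rats) for the 10 members, 18 other transferases and 34 genes of glutathione supply (1 row per gene, sorted within each block). Red marks an adjusted p under 0.05. The 4 called members lie to the right of 0, no other transferase is red, and 6 of the 7 red genes of glutathione supply lie to the left.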

How the data were processed

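Per the submitters' processing notes, the authors used RMA to make the deposited log2 values, with no version named. Its steps are background correction, quantile normalization and probe set summary, so changes are relative to the bulk of genes. Values ran from 2.74 to 15.4 with array medians of 6.31 to 6.41. Of 31099 probe sets, 57 were controls, 20826 had 1 gene symbol, 436 several and 9780 none here, and 20758 symbols were updated by gene ID. A gene was its probe set with the highest mean, which gave 14217 genes, with no filter on low values.

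Group means were estimated by limma 3.58.1 (R 4.3.3) from the 20 arrays together (14 residual and 4.77 prior degrees of freedom), and p-values were Benjamini-Hochberg adjusted over all genes. Exact permutation tests compared members of a class. The fit was tested on simulated data. The number of arrays limits the precision. All members were named, with called genes of the 2 lists (up to 8 of glutathione supply). The 3 genes most correlated with each called member were also named, leaving out those known only by a locus number. The members and lists were chosen with earlier results of these data known. Other probe set rules, filters, scalings, limma options, a GAPDH covariate, a replicate block and left-out arrays were tried as alternatives.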

Additional observations from a re-analysis of the deposited data

How the results depend on the processing

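Of 1440 alternative values for single members, 1410 kept their side of the threshold, 26 lost a call and 4 gained one. No value changed sign where the main or the alternative fit called the gene. Some uncalled changes did change sign. For example, Gstm2 at 994.6 mg/kg ran from -0.35 to 0.09 with 1 array left out. The count of 4 members at 994.6 mg/kg was 2 to 4 when 1 array was left out (2 without replicate 1 of that dose). Gstt1 lost its call there in 8 alternatives. With array weights Gstt2 (0.26, adjusted p = 0.0104) and Gstm1 (0.32, adjusted p = 0.00472) were called at 994.6 mg/kg. The other calls gained with array weights were Gstt1 at 497.3 mg/kg (0.39, adjusted p = 0.048) and Gstm1 on the trend (0.06 per step, adjusted p = 0.0308). At 497.3 mg/kg the count of 2 became 1 when probe sets of a gene were averaged, all probe sets fitted, limma's trend and robust options, the replicate block, or the same arrays with the block left out (chosen after seeing the data), and was 1 to 2 with 1 array left out. Gstt3 was the call lost. At 248.6 mg/kg the count of 1 became 0 with only these groups fitted (Gsta3, adjusted p = 0.0744), and was 0 to 1 with 1 array left out (0 without replicate 3 of that dose). On the trend the count of 4 became 1 with treated arrays only, and stayed 4 to 4 with 1 array left out. The labels do not say whether replicate numbers pair rats. Over 45 same-numbered pairs the correlation of deviations ran from -0.38 to 0.37, with a median of 0.03. It was over 0.1 in 16 of them, and the median of differently numbered pairs was -0.03. These values do not settle whether the numbers pair rats. With 1 array left out, the difference ran from 1.09 to 1.34 for Gsta3 minus Gsta4, 0.90 to 1.11 for Gstt3 minus Gstt2, 0.65 to 0.83 for Gstt3 minus Gstt1, 0.17 to 0.34 for Gstt1 minus Gstt2 and 0.17 to 0.61 for Gstm1 minus Gstm2. The first 2 of these pairs lost their calls in 7 of 8 such tests, in which the few splits and the adjustment over pairs limit how low a p can fall. With the replicate block it was 1.19 and 1.07 for the first pair and Gstt3 minus Gstt2, where 3 pairs cannot give a p under 0.25. With the mean of probe sets Gstt3 minus Gstt1 (0.72, adjusted p = 0.0446) and Gstt1 minus Gstt2 (0.39, adjusted p = 0.0298) passed. Over all genes, 635 calls at 994.6 mg/kg became 173 without replicate 1, 310 with the replicate block, 1000 with quantile normalization and 2841 with array weights, and 920 trend calls became 31 with treated arrays only. Where no construction is named, the cause was not tested.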
